A study of Mus musculus with 8 samples.

Results

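Genes of mitosis and of the G2 phase before it were followed in mouse embryonic stem (ES) cells in which one of 2 histone demethylases was knocked down. The list held 49 genes, chosen by symbol, and 48 of them had a probe set annotated to that symbol alone; Ccnb1 had none and was not analysed here. These 48 were part of 18193 genes that could be named on the arrays, and where a gene had several probe sets the one brightest on average across the 8 arrays stood for it. The 3 groups compared were 3 samples that carried a lentiviral hairpin (shRNA) against Jmjd2b, 2 samples with a hairpin against Jmjd2c, and 3 controls with a hairpin against GFP, a protein that mouse cells do not have. All 8 were male ES cells of strain 129S4/Svjae in medium with LIF, the cytokine that keeps ES cells undifferentiated, and RNA was taken after infection, puromycin selection and passaging. Both targets, listed as Kdm4b and Kdm4c on the array, remove methyl groups from lysines of histone H3. The labels do not say how many hairpins or infections a group rests on, so the spread between samples may be technical.

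A cell that has copied its DNA passes through G2 and then divides in mitosis. The kinase Cdk1, switched on by A- and B-type cyclins, drives entry; condensins and topoisomerase compact and untangle the chromosomes; a spindle of microtubules and motor proteins attaches to them at the kinetochores; and the spindle checkpoint holds back the anaphase-promoting complex until every chromosome is attached. Most of these genes are transcribed in a wave in G2 by a complex of MuvB proteins with B-Myb (Mybl2) and Foxm1, which reaches their promoters through a short element called the CHR (cell cycle genes homology region), while the factor NF-Y binds CCAAT boxes nearby. ES cells cycle fast, with a short G1, so that many of them are in S phase or G2 at any time. In RNA from a whole culture, fewer cells in G2 or mitosis and less RNA per such cell cannot be told apart.

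Promoter sequences were at hand for 40 of the 48 genes, from RefSeq on build GRCm38.p6, as windows from 250 bases before to 50 bases after an annotated transcription start; Incenp, Aurkb, Ccna2, Cdca2, Foxm1, Kif20a, Smc4 and Tpx2 were without one. Most held the letters of the CHR: TTTGAA, read on either strand, was in a promoter of 32 of the 40 genes (80.0%), against 15.7% of 14452 genes tested on the arrays. CCAAT, again on either strand, was in 30 of the 40 (75.0%), against 42.0% of genes tested, and 28 (70.0%) held both, against 6.21%. The sites sat close to the start, with the first letter of the nearest TTTGAA at a median of base 4 downstream and within 60 bases in 31 of 36 promoters that held it (86.1%), against a median of -115 and 30.8% over all 5878 promoters with it. The sites below are those of 9 genes that fell in the Jmjd2b knockdown and of 3 whose log2 change there lay between -0.04 and 0.01, each with up to 12 bases on both sides of the hexamer nearest the start and every match in capitals (TTCAAA is the same letters on the other strand); the Anln stretch holds 2. 
Hmmr, chr11:40733412-40733441, minus strand: agttgaggtaaaTTTGAAttcaggcgagct
Ncapd2, chr6:125191692-125191721, minus strand: cagccgttgaggTTTGAAcagggaattgcg
Anln, chr9:22389168-22389197, minus strand: ggggcgctgaaaTTCAAAtTTTGAAcggcc
Bub1b, chr2:118598239-118598260, plus strand: agagacgttaaaTTTGAAactt
Cdca3, chr6:124830194-124830223, plus strand: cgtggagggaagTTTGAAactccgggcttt
Ncapg, chr5:45669883-45669912, plus strand: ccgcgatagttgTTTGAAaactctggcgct
Kif2c, chr4:117178858-117178887, minus strand: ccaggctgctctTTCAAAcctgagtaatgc
Top2a, chr11:99024195-99024224, minus strand: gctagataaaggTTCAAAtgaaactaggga
Ccnb2, chr9:70421533-70421562, minus strand: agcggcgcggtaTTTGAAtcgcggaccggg
Plk1, chr7:122159453-122159482, plus strand: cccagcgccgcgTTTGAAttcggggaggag
Spc25, chr2:69206172-69206201, minus strand: ggcggtggagagTTTGAAattgaaagactg
Ckap2, chr8:22185903-22185932, minus strand: gctttgttcgatTTTGAAatttctcgccgg

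The 150 bases before the start of 4 genes that fell show how the hexamer and the CCAAT boxes (ATTGG on the other strand) lie in one promoter, both in capitals. 
Ncapd2, chr6:125191587-125191736, minus strand: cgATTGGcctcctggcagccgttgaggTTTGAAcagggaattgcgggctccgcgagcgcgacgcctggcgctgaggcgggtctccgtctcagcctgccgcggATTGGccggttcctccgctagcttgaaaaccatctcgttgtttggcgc
Top2a, chr11:99024190-99024339, minus strand: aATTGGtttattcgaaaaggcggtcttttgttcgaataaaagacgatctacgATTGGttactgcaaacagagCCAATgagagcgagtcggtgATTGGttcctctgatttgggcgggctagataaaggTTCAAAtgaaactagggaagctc
Espl1, chr15:102296143-102296292, plus strand: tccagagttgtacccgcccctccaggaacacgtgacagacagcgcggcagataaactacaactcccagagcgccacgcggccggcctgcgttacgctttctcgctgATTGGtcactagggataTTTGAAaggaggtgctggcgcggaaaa
Kif11, chr19:37376232-37376381, plus strand: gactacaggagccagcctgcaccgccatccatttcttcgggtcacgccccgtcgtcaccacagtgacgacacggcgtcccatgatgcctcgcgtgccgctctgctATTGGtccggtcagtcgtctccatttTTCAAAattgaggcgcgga
The variant TTCGAA was in 3 of the 40 genes (7.5%), against 2.23% of genes tested, TTTAAA in 8, against 12.1%, and CTTGAA in 5, against 12.5%. These are matches of letters in a window and show no binding.

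**Figure D1:**
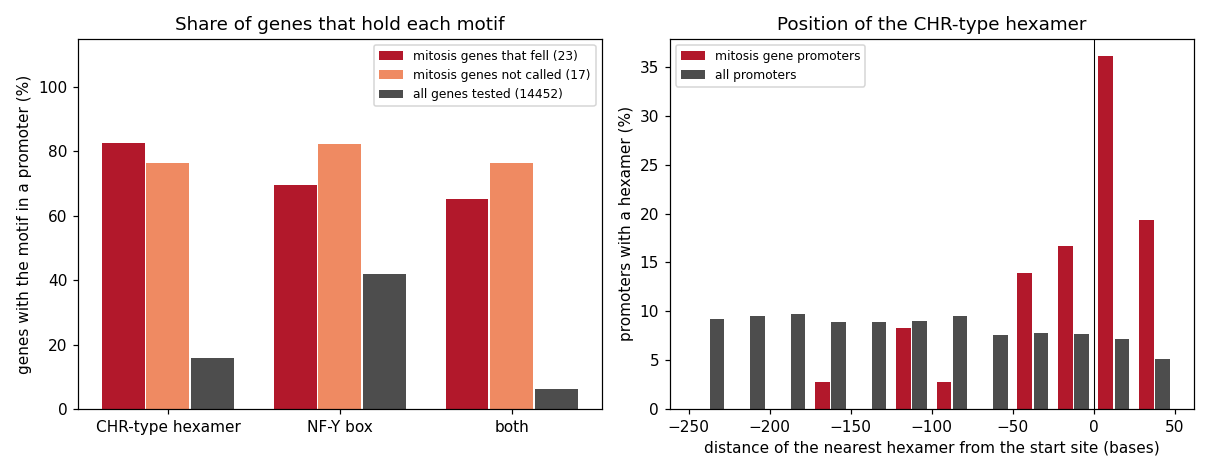
Left, share of genes (%) whose promoter holds the CHR-type hexamer, the NF-Y box or both, for mitosis genes that fell in the Jmjd2b knockdown, mitosis genes not called there and all genes tested. Right, distance of the nearest hexamer from the start site in even bins, as % of promoters that hold one; the hexamer stands in 82.6% of the genes that fell, 76.5% of those not called and 15.7% of all genes.

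Each probe set had 1 linear intensity per array, and array medians lay between 44.7 and 46.6. How the arrays were scaled is not stated in the sources used. Changes are differences of log2(intensity + 16) from 1 limma fit over all 8 arrays, called at a Benjamini-Hochberg adjusted p under 0.05 over all 18193 genes. The targets were lower under their own hairpin, with Kdm4b at 3.64% to 10.8% of the control mean on the Jmjd2b knockdown arrays, and Kdm4c at 11.1% and 36.7% on the 2 Jmjd2c knockdown arrays. Each also had lower values under the other hairpin, Kdm4c at 50.8% to 62.5% of control in the Jmjd2b knockdown and Kdm4b at 52.3% and 60.9% in the Jmjd2c knockdown. Neither of these changes passed (limma, adjusted p = 0.102 and 0.178), and the Kdm4b controls themselves spanned 72.5% to 137.5% of their mean. ES cell markers were present, with Pou5f1 between 7410 and 8038 on every array, although the sum of 8 such markers was 50907 to 53886 in the Jmjd2b knockdown and 53336 to 54444 in the Jmjd2c knockdown, against 60370 to 61524 in the control; 5 of the 8 fell and 1 rose in the Jmjd2b knockdown, and 2 fell and 0 rose in the Jmjd2c knockdown. Of 10 fibroblast markers, which feeder cells would carry, 2 rose and 2 fell in the Jmjd2b knockdown and 0 rose and 2 fell in the Jmjd2c knockdown; their summed intensity was 384 to 437 and 416 to 473, against 649 to 689.8 in the control. Pdgfrb and Thy1 fell in both, Col1a1 and S100a4 rose in the Jmjd2b knockdown, and Col1a1, a collagen gene of fibroblasts and other mesenchymal cells, had 47.4, 50.4 and 69.9 under the Jmjd2b hairpin and at most 26.4 under the Jmjd2c hairpin, against 12.5, 17.7 and 7.34 in the control, all near or below the array medians apart from the highest. The actin signal near the 3' end of the transcript over that near the 5' end was 1.31 to 1.42 in the Jmjd2b knockdown and 1.43 to 1.48 in the Jmjd2c knockdown, against 1.45 to 1.63 in the control. The part of these differences in the results below was not tested. Exact values of 1 numbered 412 to 455 on 3 arrays (the first and second control and the second Jmjd2b knockdown) and 7 to 11 on the other 5; this array type was used as a block and to compare groups within a type.

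In the Jmjd2b knockdown, 27 of the 48 genes fell and 0 rose, against 12.9% of all genes tested that fell and 11.6% that rose. All 48 were above the median level of all genes, where calls are more frequent: among the 8996 genes at least as bright as the dimmest of them, 19% fell and 18.2% rose. The median log2 change was -0.35, with a range of -1.30 to 0.08, against a median of -0.03 over all genes and -0.01 over the bright ones. In 31 of the 48 genes every Jmjd2b knockdown array was below every control array, which was so for 23.8% of all genes, and in 1, Mad2l1, every knockdown array was above (21% of all genes). The change was below 0 in 40 of the 48, against 53.8% of all genes. The falls were mostly small: only Pttg1 and Cep55 were below -1 on the log2 scale.

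The Jmjd2b arrays were alike in this. Their median deviation from the mean of the controls over the 48 genes was -0.28, -0.42 and -0.33 on the log2 scale, while the controls lay at -0.08, 0.04 and 0.06. On the same arrays the median of all genes was -0.02, -0.03 and -0.03 in the knockdown and -0.02, 0.01 and 0.02 in the control. Within the first array type the members' median change was -0.38 (1 knockdown array, 2 controls) and within the second -0.39 (2 and 1). With the type as a block 25 genes fell, against 11.5% of all genes. The count moved with the array left out. It was 19, 16 and 24 without Jmjd2b knockdown arrays 1, 2 and 3 in turn, where 9.44%, 7.72% and 10.9% of all genes fell. Without controls 1, 2 and 3 in turn it was 25, 17 and 16, beside 9.72%, 10.1% and 7.11%. With only the 2 groups in the fit it was 29, beside 16.3%. The median was between -0.39 and -0.31 in these fits.

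**Figure D2:**
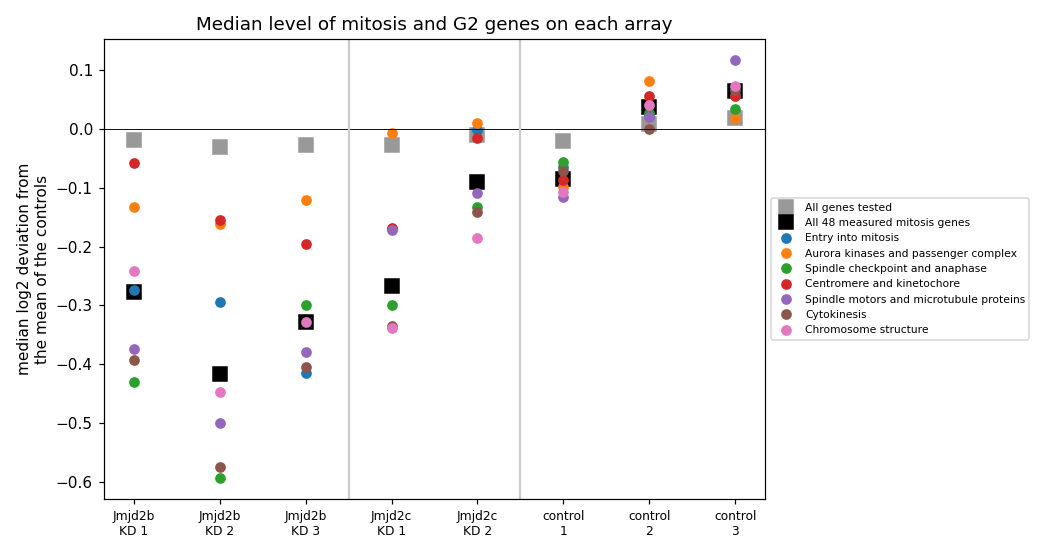
Median log2 deviation from the mean of the controls on each of the 8 arrays, for all genes tested (grey squares), the 48 mitosis genes (black squares) and their role groups (coloured points). The Jmjd2b knockdown arrays lie at -0.28, -0.42 and -0.33, the Jmjd2c knockdown arrays at -0.27 and -0.09, and the controls between -0.08 and 0.06.

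**Figure D3:**
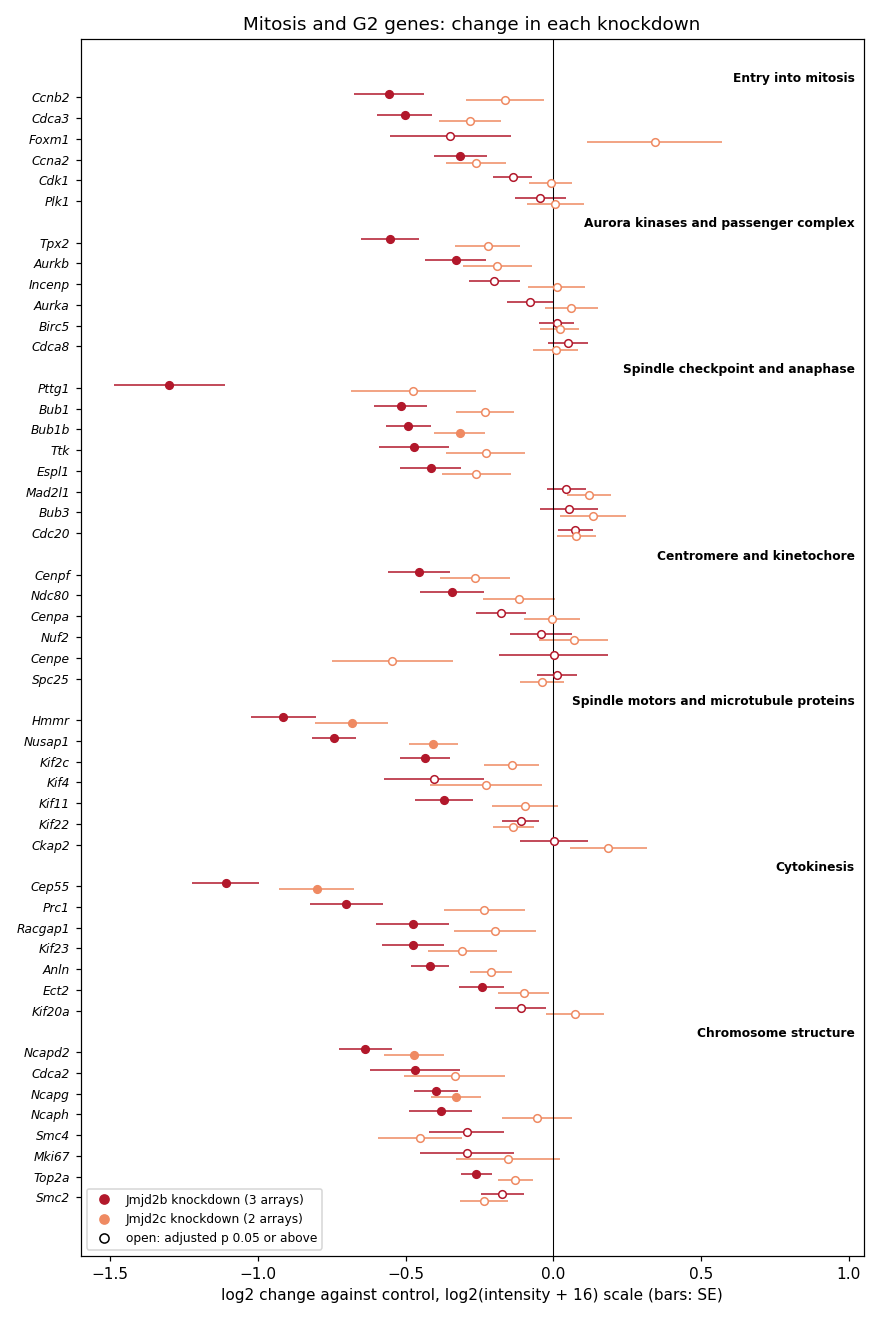
Log2 change against control of each of the 48 genes, by role, in the Jmjd2b (dark) and Jmjd2c (light) knockdown; bars are SE and filled points passed the test. The Jmjd2b points range from -1.30 to 0.08 and 27 are filled, while 6 of the Jmjd2c points are filled.

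Among 6 measured genes of entry into mitosis, 3 fell and 0 rose in the Jmjd2b knockdown (median log2 change -0.33). Ccnb2 had intensities of 3412, 2982 and 2851 on the Jmjd2b knockdown arrays and 3438 and 4738 on the Jmjd2c knockdown arrays, against 4267, 4458 and 4869 on the control arrays. All Jmjd2b knockdown arrays lay below all controls, and the 2 Jmjd2c knockdown arrays stood apart, the second of them within the control range. This B-type cyclin, a partner of Cdk1, changed by -0.56 ± 0.12 in the Jmjd2b knockdown (SE; limma, adjusted p = 0.00736) and was -0.16 ± 0.13 in the Jmjd2c knockdown (adjusted p = 0.509). The A-type cyclin Ccna2, which acts in S phase and G2, had 3348, 3076 and 3417 under the Jmjd2b hairpin and 3019 and 3833 under the Jmjd2c hairpin, against 4145, 4055 and 4041 in the control. The knockdown values were below those of every control in both groups, and the change was -0.31 ± 0.09 in the Jmjd2b knockdown (adjusted p = 0.0292). Another Ccna2 probe set of similar brightness, with a mean of 2910.0, had -0.11 in the Jmjd2b knockdown and 0.04 in the Jmjd2c knockdown, and the mean of both, -0.21 in the Jmjd2b knockdown, did not pass. Cdca3, part of the ligase that removes the Cdk1 inhibitor Wee1, had 2761, 2523 and 2451 under the Jmjd2b hairpin and 2954 and 3057 under the Jmjd2c hairpin, against 3217, 3757 and 4045 in the control. Here too no array of either knockdown reached the controls, with a change of -0.50 ± 0.09 in the Jmjd2b knockdown (adjusted p = 0.00355). That value comes from a probe set whose ID ends in _a_at, and the remaining plain one, with a mean intensity of 39.1, gave 0.10.

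The kinases at the centre of this step did not pass. Cdk1 itself had 5201, 4650.4 and 4574 under the Jmjd2b hairpin and 5153 and 5350.1 under the Jmjd2c hairpin, against 5115, 5291 and 5447 in the control, ranges that overlap, and its change in the Jmjd2b knockdown was -0.14 ± 0.07 with a 95% interval of -0.28 to 0.01 (adjusted p = 0.162). For Plk1, the polo-like kinase that activates Cdk1 and later steps, the interval was -0.24 to 0.15 around -0.04. Foxm1, the transcription factor of the G2 wave, was the dimmest of all 48 probe sets. It had 87.1, 97.6 and 62.3 under the Jmjd2b hairpin and 106 and 186 under the Jmjd2c hairpin, against 106, 111 and 106 in the control, so that the Jmjd2b knockdown lay below the controls and 1 Jmjd2c knockdown array far above them. Its changes were -0.35 ± 0.21 in the Jmjd2b knockdown (adjusted p = 0.263) and 0.34 ± 0.23 in the Jmjd2c knockdown (adjusted p = 0.419). Its probe sets of mean 93.7 and 84.7 had -0.03 and -0.02 under the Jmjd2b hairpin and -0.05 and -0.20 under the Jmjd2c hairpin.

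Aurora kinases and the chromosomal passenger complex had 2 of 6 genes that fell and 0 that rose, with a median of -0.14 in the Jmjd2b knockdown. Tpx2 had intensities of 1118, 1039.6 and 1063 on the Jmjd2b knockdown arrays and 1359 and 1346 on the Jmjd2c knockdown arrays, against 1403, 1621 and 1735 on the control arrays. Tpx2, which activates Aurora A on the spindle, was lower on every knockdown array than on any control, and in the Jmjd2b knockdown it changed by -0.55 ± 0.10 (adjusted p = 0.0031). Averaged over its 4 probe sets Tpx2 stood at -0.25 and did not pass. Aurkb, the kinase of the passenger complex, had 968, 1008 and 1093 under the Jmjd2b hairpin and 1033 and 1233 under the Jmjd2c hairpin, against 1214, 1361 and 1295 in the control. Only the Jmjd2b knockdown was separate from the controls, at -0.33 ± 0.10 (adjusted p = 0.0425), close to the threshold. Incenp, the scaffold of that complex, had 2504, 2470.2 and 2671 under the Jmjd2b hairpin and 2921 and 2978 under the Jmjd2c hairpin, against 2597, 3118 and 3096 in the control. Its groups overlapped and it did not pass, with -0.20 ± 0.09 in the Jmjd2b knockdown (adjusted p = 0.125). Another Incenp probe set, with a mean of 980.7, had -0.39 and passed when it was the one used. The dimmer ones, with means of 40.9 to 71.0, had -0.36 to 0.07. The complex's other subunits, Birc5 (survivin) and Cdca8 (borealin), had changes of 0.01 and 0.05, with intervals of -0.12 to 0.14 and -0.10 to 0.20, and Aurka had -0.08, with -0.26 to 0.10.

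Of 8 genes of the spindle checkpoint and anaphase, 5 fell and 0 rose in the Jmjd2b knockdown, with a median of -0.44. Pttg1 had intensities of 2016, 1505 and 2260.0 on the Jmjd2b knockdown arrays and 2626 and 4355 on the Jmjd2c knockdown arrays, against 4853, 4286 and 4996 on the control arrays. The Jmjd2b knockdown was far below the controls on every array, whereas the 2 Jmjd2c knockdown arrays differed and the second lay inside the control range. Pttg1 is securin, which holds the protease separase inactive until anaphase, and at -1.30 ± 0.19 (SE; adjusted p = 0.00105), or 40.9% of the control mean, its change in the Jmjd2b knockdown was the lowest value of the 48 genes. A dimmer Pttg1 probe set, with a mean of 57.9, gave -0.75, which did not pass when it was the one used. Separase itself, Espl1, changed by -0.42 ± 0.10 (adjusted p = 0.0163).

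The checkpoint kinases fell too. Bub1 had 3089, 2879 and 3353 under the Jmjd2b hairpin and 3609.8 and 3965 under the Jmjd2c hairpin, against 4003, 4555 and 4814 in the control, with no knockdown array in the control range, and changed by -0.52 ± 0.09 in the Jmjd2b knockdown (adjusted p = 0.0025). A dim second probe set of Bub1, with a mean of 55.0, had a change of 0.47, and the mean of both, -0.02, did not pass. For Bub1b (BubR1), which binds and inhibits Cdc20, the values were 1967, 1737 and 1959.7 under the Jmjd2b hairpin and 2119 and 2136 under the Jmjd2c hairpin, against 2595, 2685 and 2684 in the control. The 3 groups were separate, the Jmjd2b knockdown lowest, and the change was -0.49 ± 0.08 in the Jmjd2b knockdown (adjusted p = 0.00156) and -0.32 ± 0.09 in the Jmjd2c knockdown (adjusted p = 0.0473). The Jmjd2c call of Bub1b was lost in 13 of 16 alternatives, and with the replicate number as a block it was -0.30 and did not pass. Ttk (Mps1), the kinase that starts checkpoint signalling, changed by -0.47 ± 0.12 in the Jmjd2b knockdown (adjusted p = 0.0168). The other members of this group did not pass: Cdc20, the activator of the anaphase-promoting complex, had 7690.1, 8045 and 8609 under the Jmjd2b hairpin and 7877 and 8379 under the Jmjd2c hairpin, against 7415, 8075 and 7604 in the control, and its interval in the Jmjd2b knockdown was -0.06 to 0.21. For Mad2l1 and Bub3, which act with it at the checkpoint, the changes were 0.04 and 0.05 (intervals of -0.10 to 0.19 and -0.17 to 0.27).

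Of 6 genes of the centromere and kinetochore, 2 fell and 0 rose (median -0.11). Cenpf had intensities of 2253, 2054 and 2138 on the Jmjd2b knockdown arrays and 2226 and 2694 on the Jmjd2c knockdown arrays, against 2577, 3069.7 and 3232 on the control arrays. This kinetochore protein of late G2 was lower on every Jmjd2b knockdown array than in the control, with a change of -0.45 ± 0.11 (adjusted p = 0.0115), while 1 Jmjd2c knockdown array lay within the control range. Ndc80, which grips the ends of microtubules, had 669.9, 604 and 636 under the Jmjd2b hairpin and 681 and 819 under the Jmjd2c hairpin, against 787, 799 and 848 in the control. It passed near the threshold at -0.34 ± 0.11 (adjusted p = 0.0441), and the same change did not pass with the replicate number as a block. Cenpa, the histone H3 variant that marks the centromere, had 3589, 3577 and 2972 under the Jmjd2b hairpin and 3659 and 3946 under the Jmjd2c hairpin, against 3913, 3702 and 3816 in the control, with the Jmjd2b knockdown just below the controls, and did not pass at -0.18 ± 0.08 (adjusted p = 0.162). Nuf2 and Spc25, which form a complex with Ndc80, had -0.04 and 0.01 in the Jmjd2b knockdown, with intervals of -0.27 to 0.19 and -0.14 to 0.16. The motor Cenpe had 1218, 1045 and 1428 under the Jmjd2b hairpin and 882 and 783 under the Jmjd2c hairpin, against 897, 1384 and 1459 in the control. Only its Jmjd2c knockdown arrays lay below all controls, and the change there, -0.54 ± 0.21, did not pass (adjusted p = 0.134).

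Of 7 spindle motors and microtubule proteins, 4 fell and 0 rose in the Jmjd2b knockdown (median -0.40). Nusap1 had intensities of 2528, 2313 and 2398 on the Jmjd2b knockdown arrays and 2880.3 and 3224 on the Jmjd2c knockdown arrays, against 3931, 3977 and 4228 on the control arrays. The 3 groups were separate, with the Jmjd2c knockdown between the others. Nusap1, which bundles spindle microtubules near chromosomes, was -0.74 ± 0.07 in the Jmjd2b knockdown (adjusted p = 0.000161) and -0.41 ± 0.08 in the Jmjd2c knockdown (adjusted p = 0.016); it had the smallest p of the 48 genes in the first of these comparisons. Hmmr, a spindle pole protein also known as a hyaluronan receptor, had 1633, 1401 and 1688 under the Jmjd2b hairpin and 1932 and 1760.0 under the Jmjd2c hairpin, against 2608, 3011 and 3334 in the control. Again the groups did not overlap, and the changes were -0.91 ± 0.11 (adjusted p = 0.000415) and -0.68 ± 0.12 (adjusted p = 0.0104) in the Jmjd2b and Jmjd2c knockdowns. A dim Hmmr probe set, with a mean of 69.2, gave -0.46 in both, and neither passed when it was the one used. Kif2c, a kinesin that takes microtubules apart, had 1835, 1658 and 1847 under the Jmjd2b hairpin and 2221 and 2139 under the Jmjd2c hairpin, against 2297, 2317 and 2614 in the control, below the controls on every knockdown array, and a change of -0.43 ± 0.08 in the Jmjd2b knockdown (adjusted p = 0.00484). Its dimmer probe sets of mean intensity 63.2 and 82.4 had 0.03 and 0.02 and another, of 614.6, had -0.54; the mean of all 4, -0.23, did not pass. Kif11 (Eg5), which pushes the spindle poles apart, changed by -0.37 ± 0.10 (adjusted p = 0.0218). Kif4, Kif22 and Ckap2 did not pass, with -0.40, -0.11 and 0.00 (adjusted p = 0.117, 0.243 and 0.993). The other Kif22 probe sets, with means of 851 and 1369, had -0.445 and -0.36, and the mean of all 3, -0.31, passed.

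Of 7 genes of cytokinesis, the cut that parts the daughter cells, 6 fell and 0 rose (median -0.47). Cep55 had intensities of 1111, 1047 and 1369 on the Jmjd2b knockdown arrays and 1343 and 1564 on the Jmjd2c knockdown arrays, against 2628, 2459 and 2528 on the control arrays. Both knockdowns were well below the controls and overlapped each other. Cep55, which recruits the abscission machinery to the midbody, was -1.11 ± 0.11 in the Jmjd2b knockdown (adjusted p = 0.000177), or 46.3% of the control mean, and -0.80 ± 0.13 in the Jmjd2c knockdown (adjusted p = 0.00652), or 57.3%. Prc1, which crosslinks the microtubules of the central spindle, had 1193, 1008 and 1329 under the Jmjd2b hairpin and 1474 and 1786 under the Jmjd2c hairpin, against 1750.2, 1954 and 2037 in the control. The Jmjd2b knockdown was separate from both other groups, at -0.70 ± 0.12 against control (adjusted p = 0.00283), and 1 Jmjd2c knockdown array lay within the control range. Anln (anillin), a scaffold of the contractile ring, had 3541, 3476 and 3424 under the Jmjd2b hairpin and 3833 and 4217 under the Jmjd2c hairpin, against 4477, 4622 and 4877 in the control. No group overlapped another, the Jmjd2b knockdown was lowest, and its change was -0.42 ± 0.06 (adjusted p = 0.00144). Kif23 (MKLP1) and Racgap1, which form the centralspindlin complex, changed by -0.47 ± 0.10 and -0.48 ± 0.12 (adjusted p = 0.00881 and 0.0192), and their partner Ect2, the exchange factor that switches on RhoA, by -0.24 ± 0.08 (adjusted p = 0.0443). These last calls are uncertain, since another Racgap1 probe set of similar brightness, with a mean of 952, had a change of 0.07, and Ect2 did not pass with the replicate number as a block. Kif20a, a kinesin that carries the passenger complex to the midzone, did not pass at -0.11 ± 0.09.

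Of 8 genes of chromosome structure, 5 fell and 0 rose (median -0.34). Ncapd2 had intensities of 2206, 2009 and 1977 on the Jmjd2b knockdown arrays and 2178 and 2458 on the Jmjd2c knockdown arrays, against 2911, 3356 and 3395 on the control arrays. Neither knockdown reached the controls. Ncapd2, a subunit of condensin I, was -0.64 ± 0.09 in the Jmjd2b knockdown (adjusted p = 0.000941) and -0.47 ± 0.10 in the Jmjd2c knockdown (adjusted p = 0.0198). Averaged over both its probe sets Ncapd2 stood at -0.33 and -0.31, and neither passed. Ncapg, another subunit, had 2222, 2098 and 2069 under the Jmjd2b hairpin and 2139 and 2326 under the Jmjd2c hairpin, against 2666, 2885 and 2876 in the control. It too was lower on each knockdown array than on any control, with changes of -0.40 ± 0.08 (adjusted p = 0.00417) and -0.33 ± 0.08 (adjusted p = 0.0374) in the Jmjd2b and Jmjd2c knockdowns. The Jmjd2c call of Ncapg was lost in 9 of 15 alternatives, among them the replicate number as a block, where it was -0.33. Ncaph, the third one, changed by -0.38 ± 0.11 in the Jmjd2b knockdown (adjusted p = 0.0264). Top2a, the topoisomerase that untangles sister DNA, had 6052, 5672 and 5933 under the Jmjd2b hairpin and 6288 and 6607 under the Jmjd2c hairpin, against 6798, 7246 and 7111 in the control. Its change in the Jmjd2b knockdown was small but larger than the spread, -0.26 ± 0.05 (adjusted p = 0.00628). Cdca2, which brings a phosphatase to chromosomes, passed at the threshold with -0.47 ± 0.15 (adjusted p = 0.0498). Smc2 and Smc4, the ATPase core of condensin, had -0.17 ± 0.07 and -0.29 ± 0.13, and the proliferation marker Mki67 had -0.29 ± 0.16; none of these passed (adjusted p = 0.121, 0.129 and 0.225). In the Jmjd2c knockdown Smc2 had -0.23 ± 0.08 and did not pass either (adjusted p = 0.106), but its 4 dimmer probe sets, with means of 136.7 to 1360.0, had -0.58 to -0.98. With the mean of its 5 probe sets Smc2 fell there, at -0.72, and in the Jmjd2b knockdown the 4 had values of -0.30 to 0.23.

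**Figure D4:**
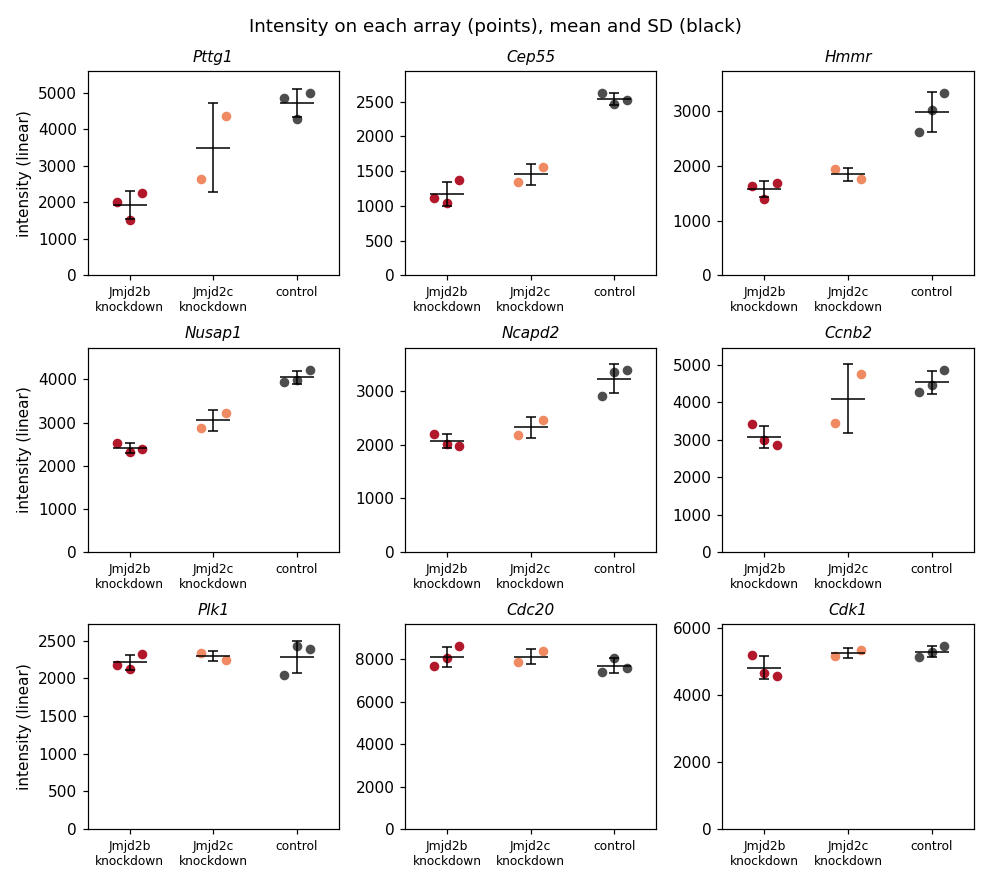
Intensity on a linear scale of 9 genes on each array (points), with mean and SD in black, in the Jmjd2b knockdown (3 arrays), the Jmjd2c knockdown (2) and the control (3). Pttg1, Cep55, Hmmr, Nusap1, Ncapd2 and Ccnb2 have all Jmjd2b knockdown arrays below all controls, while Plk1, Cdc20 and Cdk1 overlap.

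TTTGAA was common both in the genes that fell and in the others, and the differences given here were not tested. TTTGAA stood in 19 of 23 genes that fell in the Jmjd2b knockdown and had a promoter sequence (82.6%) and in 13 of 17 that were not called (76.5%), and CCAAT in 16 (69.6%) and 14 (82.4%). The variant TTCGAA stood in 3 of the 23 and 0 of the 17. Of the members with TTTGAA, 19 of 32 fell (59.4%), and of those without it, 4 of 8; the median changes were -0.38 and -0.21. Over all genes tested with a promoter, 13.2% of 2263 with the hexamer fell and 13.2% of 12189 without it. Pttg1, Nusap1, Bub1 and Ncaph were the ones that fell with no TTTGAA in the window.

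In the Jmjd2c knockdown, 6 of the 48 genes fell and 0 rose, against 5.28% of all genes that fell and 4.31% that rose, or 8.28% and 7.31% of genes at least as bright as the dimmest of the 48. The 6 were Cep55, Hmmr, Nusap1, Ncapd2, Ncapg and Bub1b, at -0.80, -0.68, -0.41, -0.47, -0.33 and -0.32. With the mean of probe sets 5 fell (4.51% of all genes). Smc2 was among these, as given above, while Bub1b and Ncapd2 did not pass. All 6 also fell in the Jmjd2b knockdown, but both comparisons use the same 3 control arrays. The median change was -0.18, against -0.02 over all genes, and 36 of the 48 had a value below 0, which was so for 53.3% of all genes. In 19 genes both Jmjd2c knockdown arrays were below all controls, against 21.2% of all genes. By role, the 6 genes lay in chromosome structure (2 of 8), spindle proteins (2 of 7), cytokinesis (1 of 7) and checkpoint and anaphase (1 of 8), with 0 of 6 in each of the other groups.

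The 2 Jmjd2c knockdown arrays did not sit at the same level. The median deviation from the control mean over the 48 genes was -0.27 on the first and -0.09 on the second, and 39 of the 48 genes were lower on the first, against 52.2% of all genes. Kdm4c was lower on the first array as well, at 11.1% of the control mean, against 36.7% on the second; whether the 2 go together was not tested. Leaving out the first array moved the median to -0.09, and leaving out the second moved it to -0.27. Each of these fits keeps 1 Jmjd2c knockdown array, so no calls are given from them. The count that fell was 1 without control array 3 (1.36% of all genes), 3 without control array 2 (3.36%) and 5 without control array 1 (2.77%). Within the array type that holds both, and against its 1 control array, the median was -0.25 and 38 of 48 genes were below 0. The 2 Jmjd2c knockdown arrays had identical values at 0.621% of probe sets, and shared 0.601% and 0.599% with Jmjd2b knockdown array 3. With that control array it was 0.0732% and 0.0621%, and no control shared more with them. Whatever these shared values reflect, it cannot be told apart from the Jmjd2c knockdown in comparisons with control. Cep55 alone passed in every alternative that was run. Intervals were wide for genes that did not pass, such as -0.46 to 0.13 for Ccnb2, -0.54 to 0.07 for Prc1 and -0.21 to 0.22 for Plk1.

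Between the knockdowns no gene of the list passed: 0 of 48 rose and 0 fell in the Jmjd2c knockdown relative to the Jmjd2b knockdown, where 0.203% and 0.489% of all genes did. Yet 42 of the 48 had a higher mean in the Jmjd2c knockdown, against 50.1% of all genes, and the median difference was 0.17, against 0.00. This rests on 2 Jmjd2c knockdown arrays, and without the second the median difference was 0.10. The first lay at -0.27 from the control mean over the 48 genes, beside -0.28 on Jmjd2b knockdown array 1. An unadjusted p under 0.05 was found for 13 genes, against 13.1% of all genes. Nusap1 had 2880.3 and 3224 in the Jmjd2c knockdown, against 2528, 2313 and 2398 in the Jmjd2b knockdown, with no overlap and a difference of 0.34 ± 0.08 (SE; adjusted p = 0.111). Pttg1 had 2626 and 4355, against 2016, 1505 and 2260.0, a difference of 0.83 ± 0.21 (adjusted p = 0.12). For Prc1 it was 0.47 ± 0.14 (adjusted p = 0.174), and for Cenpe, the most negative among the probe sets used, -0.55 ± 0.21 (adjusted p = 0.292). Another Cenpe probe set, with a mean of 643.7, had -0.04, and the 4 dimmer Smc2 probe sets had -0.69 to -0.81. Without the first Jmjd2c knockdown array the median difference was 0.24. That fit keeps 1 Jmjd2c knockdown array, so no calls are given from it. Over all arrays Foxm1 differed by 0.69 ± 0.23 (adjusted p = 0.231). This rests on 1 of 3 Foxm1 probe sets of similar brightness: the others had -0.01 and -0.18. Against Jmjd2b knockdown array 3, which shared about as many exact values with the Jmjd2c knockdown arrays as those did with each other, the median difference was 0.13. Against control, 19, 16 and 24 genes fell with 2 Jmjd2b knockdown arrays in the fit (9.44%, 7.72% and 10.9% of all genes). With the 2 Jmjd2c knockdown arrays 6 fell (5.28% of all genes).

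Other genes of the pathway, listed by function, were read from the same fit. These counts stand beside 12.9% of all genes that fell and 11.6% that rose in the Jmjd2b knockdown; in the Jmjd2c knockdown 5.28% fell and 4.31% rose. Of 29 further spindle and cytokinesis genes, 12 fell (41.4%) and 0 rose in the Jmjd2b knockdown, with a median of -0.33, and 3 fell (10.3%) and 0 rose in the Jmjd2c knockdown, with -0.04. In the Jmjd2b knockdown the kinesins Kif14 and Kif18a changed by -1.18 ± 0.15 and -0.68 ± 0.10 (SE; adjusted p = 0.000461 and 0.00134), the Aurora substrate Dlgap5 by -0.72 ± 0.11 and the condensin II subunit Ncapd3 by -0.54 ± 0.09. In the Jmjd2c knockdown Kif14, Ncapd3 and Aspm, a spindle pole protein, were the 3 that fell (-0.61, -0.46 and -0.48). Kif14 was dim, with 29.8, 21.4 and 21.1 under the Jmjd2b hairpin and 44.2 and 42.1 under the Jmjd2c hairpin, all below the array medians. Its controls had 76.6, 63.7 and 83.4. Of 27 further kinetochore genes, 7 fell (25.9%) and 1 rose in the Jmjd2b knockdown (median -0.25). In the Jmjd2c knockdown 2 fell (7.41%, near the share of all genes) and 0 rose (median -0.14). Kntc1, a subunit of the checkpoint complex RZZ, was at -0.87 ± 0.12 and -0.70 ± 0.13 in the 2 knockdowns. Zwint, which links that complex to the kinetochore, rose by 0.92 ± 0.17 in the Jmjd2b knockdown.

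Of 15 genes of the transcription control of the G2 wave, 4 fell (26.7%) and 1 rose in the Jmjd2b knockdown and 2 fell (13.3%) and 1 rose in the Jmjd2c knockdown, with medians of -0.12 and -0.04. The 1 gene that rose is near the share of all genes that did. Mybl2, the activating subunit that joins MuvB, changed by -1.01 ± 0.12 in the Jmjd2b knockdown (SE; adjusted p = 0.000436) and by -0.62 ± 0.14 in the Jmjd2c knockdown (adjusted p = 0.022). Rbl1, a pocket protein that represses with MuvB, was the other that fell in the Jmjd2c knockdown, at -0.87. It fell in the Jmjd2b knockdown too, at -0.53 ± 0.16 (adjusted p = 0.0395). Rbl2, from the same list, fell only in the Jmjd2b knockdown (limma, adjusted p = 0.00444). Rbl2 was dim, with 24.66, 26.4 and 31.4 under the Jmjd2b hairpin and 68.85 and 91.08 under the Jmjd2c hairpin. Its controls had 71.47, 51.41 and 95.92. The MuvB subunit Lin54, which contacts the CHR, changed by -0.42 ± 0.10 in the Jmjd2b knockdown, and Nfyc, a subunit of NF-Y, rose by 0.78 ± 0.10 there and by 0.77 ± 0.12 in the Jmjd2c knockdown. Of 13 kinases and phosphatases of mitotic entry, 4 fell (30.8%) and 1 rose in the Jmjd2b knockdown (median -0.20), while 2 fell and 1 rose in the Jmjd2c knockdown (median -0.12). The phosphatases Cdc25b and Cdc25c, which activate Cdk1, were at -1.24 ± 0.15 and -0.66 ± 0.13 in the Jmjd2b knockdown. In the Jmjd2c knockdown they were at -0.63 ± 0.17 and -0.53 ± 0.14. The Cdk1-binding protein Cks1b was at 0.29 ± 0.05 and 0.25 ± 0.06 in the Jmjd2b and Jmjd2c knockdowns, and all of these changes passed. Chek1, from the same list, fell by -0.61 ± 0.08 in the Jmjd2b knockdown (limma, adjusted p = 0.000649). Its change in the Jmjd2c knockdown, -0.25 ± 0.09, did not pass (adjusted p = 0.111).

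For 16 genes of the anaphase-promoting complex and its partners the counts were 3 and 1 in the Jmjd2b knockdown, near the 12.9% and 11.6% of all genes, and 0 and 1 in the Jmjd2c knockdown. Its activator Fzr1 (Cdh1) changed by -0.53 ± 0.11 and its subunit Cdc27 by 0.53 ± 0.11 in the Jmjd2b knockdown. Of 13 cohesin genes, which hold sister chromatids together, 3 fell (23.1%) and 2 rose in the Jmjd2b knockdown and 1 fell (7.69%) in the Jmjd2c knockdown. That one was Esco2, the acetyltransferase that makes cohesion lasting, at -1.14 ± 0.13 and -0.95 ± 0.14 in the Jmjd2b and Jmjd2c knockdowns. Genes of S phase, measured in the same way, had 8 of 22 that fell and 0 that rose in the Jmjd2b knockdown (36.4%, median -0.15), against 27 of 48 mitosis genes (56.2%, median -0.35); the difference between the lists was not tested. In the Jmjd2c knockdown 3 of the 22 fell, with a median of -0.11.

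**Figure D5:**
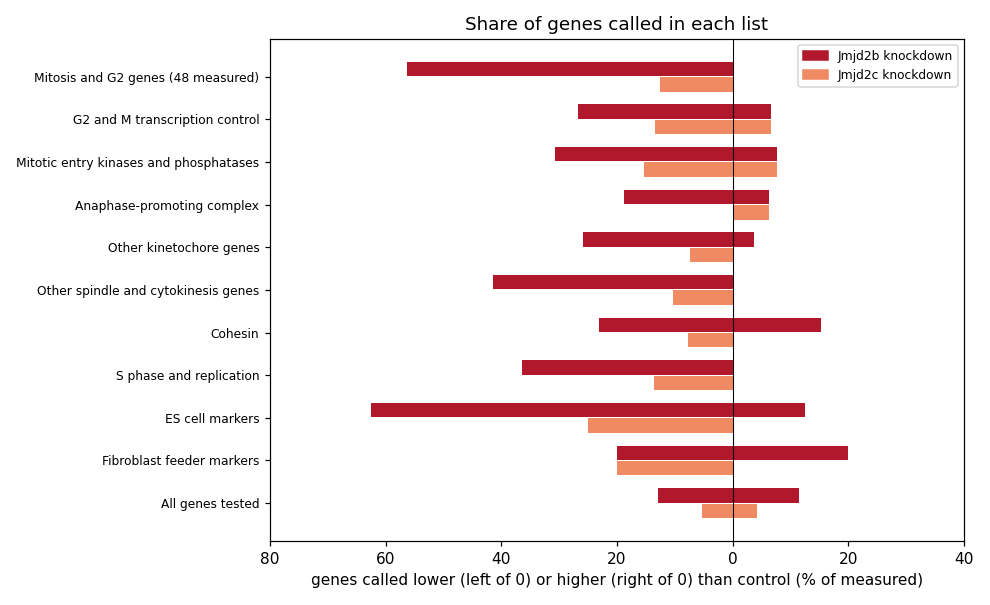
Share of measured genes (%) called lower (left) or higher (right) than control in each list, in the Jmjd2b (dark) and Jmjd2c (light) knockdown. For the mitosis and G2 genes 56.2% fell in the Jmjd2b knockdown and 12.5% in the Jmjd2c knockdown, beside 12.9% and 5.28% of all genes tested.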

How the data were processed

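RNA of 8 samples (3 Jmjd2b knockdown, 2 Jmjd2c knockdown, 3 control) was measured on 1 array each, and groups and replicate numbers came from the sample titles. The deposited values are linear intensities per probe set; the labels' protocols name biotin-labelled cRNA, prepared after the manufacturer's procedure, and probe summary, background correction and scaling are not given in the sources used here. Symbols came from the platform annotation (34945 of 45101 probe sets with exactly 1 symbol, array controls left out). Values were converted to log2(intensity + 16), not normalized further or filtered, and fitted with limma 3.58.1 in R 4.3.3 (group means, all 8 arrays, eBayes with trend, two-sided, Benjamini-Hochberg over 18193 genes, threshold 0.05); the script was tested on simulated data. The pseudocount understates changes of dim genes, and the number of arrays limits precision. Same-numbered Jmjd2b knockdown and control arrays deviated together from their group means (correlations across genes of 0.176, 0.111 and 0.116). However, Jmjd2b knockdown 3 and Jmjd2c knockdown 1, with different numbers, reached 0.167. Same-numbered Jmjd2c knockdown arrays had 0.0408 and 0.0633 with controls and -0.0597 and 0.142 with Jmjd2b knockdown arrays. Pairing is therefore uncertain, the labels state none, and the replicate number was a block only in an alternative. Motif counts used pandas 2.3.3 in Python 3.11.15; plots used matplotlib 3.10.9.

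The members and lists, and the alternatives, were chosen with earlier results of these data known. Values of every array are given for the 3 members of each role with the smallest p in the Jmjd2b knockdown and for members called in the Jmjd2c knockdown; from other lists, genes among the 4 smallest p are named. Cdk1, Foxm1, Cdc20 and Cenpe were shown in full after their values were seen. The alternatives were another pseudocount, only brighter genes, quantile normalization, the mean of probe sets, probe sets without _s_, _x_ or _a_ in the ID, only the 2 groups compared, the replicate number or the array type as a block, and each array left out.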

Additional observations from a re-analysis of the deposited data

How the results depend on the processing

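No alternative called a member higher than the control in either knockdown. In the Jmjd2b knockdown the count that fell was 27 and ranged from 16 to 29 when 1 array was left out, and the median change from -0.39 to -0.31. With the mean of probe sets the median was -0.24 and 19 fell, against 11.5% of all genes. In the Jmjd2c knockdown the count was 6, and 1 without control array 3 (1.36% of all genes). The median ranged from -0.27 to -0.09 when 1 array was left out. Fitting only those 2 groups gave 3 (2.82% of all genes). Without probe sets whose ID holds _s_, _x_ or _a_, 3 of 40 measured genes fell (4.59% of all genes). Where a single Jmjd2c knockdown array was left, it was assumed to vary like the other groups. Between the knockdowns 0 members rose in the fits that kept both Jmjd2c knockdown arrays. The median difference ranged from 0.10 to 0.24 when 1 array was left out. Both ends of that range come from fits with 1 Jmjd2c knockdown array left. With the replicate number as a block, 25 fell in the Jmjd2b knockdown (12.3% of all genes) and 4 in the Jmjd2c knockdown (3.85%). Between the knockdowns 0 fell (0.55% of all genes). Apart from Ndc80, Ect2, and, in the Jmjd2c knockdown, Bub1b and Ncapg, no call changed. Cdca3 turned to 0.10 once such probe sets were dropped, when a dim one stood for it. Of the 27 genes, 8 (Ccnb2, Bub1b, Nusap1, Prc1, Kif23, Anln, Cep55 and Ncapg) passed in each of the 16 alternatives that gave them a value. Among the other 19, Ndc80 lost its call in 8 alternatives, Ccna2, Aurkb, Ect2 and Cdca2 in 6, Kif11 and Racgap1 in 5, Ttk, Espl1 and Ncaph in 4, and the remaining 9 in 1 or 2. Calls were also gained there. Incenp passed with quantile normalization (-0.26), without control array 1 (-0.29) and without _s_, _x_ or _a_ probe sets (-0.39). Kif22 passed with the last (-0.445) and with the mean of probe sets (-0.31). Kif4 and Smc4 passed with only the 2 groups (-0.40 and -0.29), and Mki67 without control array 1 (-0.49). In the Jmjd2c knockdown Cenpe passed without control array 1 (-0.76). The causes of these shifts were not tested, except that fewer arrays or genes enter some fits.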
